A study of Homo sapiens with 24 samples.

Results

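Basal and squamous keratins and adhesion genes were followed in RT112 and SCaBER bladder cancer cells after siRNA against FOXA1, ZBED2 or both. The group held 10 genes chosen by symbol, namely KRT5, KRT6A, KRT6B, KRT14, KRT16, KRT17, TP63, DSG3, COL17A1 and CDH3, out of 58721 genes in the count table. Each of the 10 symbols matched a single row of the table.

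Keratins are the intermediate filament proteins of epithelia, and a type II keratin pairs with a type I keratin to form a filament. In stratified epithelia and in the basal layer of the urothelium KRT5 pairs with KRT14, while KRT6A and KRT6B pair with KRT16 and KRT17 in wounded, inflamed or squamous epithelium. The filaments are anchored to neighbouring cells by desmosomes and to the basement membrane by hemidesmosomes, and TP63 encodes p63, the transcription factor that maintains basal cells and drives many of these genes. Their expression together is a defining trait of the basal/squamous (Ba/Sq) subtype of bladder cancer.

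RT112 was described as a luminal papillary (LumP) line and SCaBER as a Ba/Sq line, so each subtype was represented by 1 line and any difference between them is a difference between these cell lines. All cells, controls included, received siRNA through a lipid transfection reagent. Each line had 6 treatments, which were control siRNA (siControl), siZBED2-1 or siZBED2-2, different siRNAs against ZBED2, FOXA1 siRNA of 1 sequence (siFOXA1), and siFOXA1 combined with either ZBED2 siRNA (double knock-down). FOXA1, a forkhead factor, helps to keep urothelial cells luminal, and ZBED2 encodes a zinc finger transcription factor. Each of the 12 groups comprised 2 libraries of 3′ RNA-seq, 24 in all, and the labels do not say whether the replicates of a group were independent cultures, so p-values measure the spread between these libraries, which may be technical.

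Libraries held between 4425404 and 6119210 counts. Levels are given as CPM, counts scaled to a common library size with correction for composition, and 3 counts, the most that a count of 0 leaves possible, were worth 0.474 to 0.679 CPM. FOXA1 (ENSG00000129514, chromosome 14 at 37589552 to 37595249) went from 41.9 and 41.4 CPM under siControl to 6.87 and 9.57 with siFOXA1 in RT112, and SCaBER had 20 and 28 counts against 4 and 6. ZBED2 (ENSG00000177494, chromosome 3 at 111592900 to 111595346) fell under siZBED2-1 by 3.97 on the log2 scale in RT112 and by 1.96 in SCaBER, whereas siZBED2-2 left 7.34 and 6.30 CPM of 22.1 and 16.9 in RT112 and 8.74 and 15.8 of 18.9 and 18.9 in SCaBER, without passing the test. Transcripts of the mitochondrial genome took 18.6% to 22.7% of counts in the 6 RT112 libraries with FOXA1 siRNA and 8.22% to 17.8% in the 6 without, but 9.30% to 12.9% and 9.55% to 12.0% in SCaBER. Of the 12 luminal markers checked (KRT20, uroplakins, GATA3 and others), RT112 had counts for all and SCaBER had none for KRT20, UPK1A and UPK3A. Immune markers reached at most 31 counts and endothelial markers at most 26 counts, summed, in any library. Summed fibroblast markers lay at 108 to 186 CPM in RT112, with COL1A2 and COL3A1 at 0, and at 16.6 to 45 in SCaBER.

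The 10 genes lie on 6 chromosomes (GRCh38.p14). The type II keratins KRT5 (ENSG00000186081, 52514575 to 52520394), KRT6A (ENSG00000205420, 52487176 to 52493257) and KRT6B (ENSG00000185479, 52446651 to 52452146) are neighbours on chromosome 12. The type I keratins KRT14 (ENSG00000186847, 41582279 to 41586895), KRT16 (ENSG00000186832, 41609778 to 41612767) and KRT17 (ENSG00000128422, 41619442 to 41624575) are neighbours on chromosome 17. TP63 (ENSG00000073282) spans 189596746 to 189897276 of chromosome 3, DSG3 (ENSG00000134757) 31447741 to 31478702 of chromosome 18, COL17A1 (ENSG00000065618) 104031286 to 104085880 of chromosome 10 and CDH3 (ENSG00000062038) 68645310 to 68733771 of chromosome 16. KRT6A, KRT6B and KRT6C are near-identical copies, and KRT14, KRT16 and KRT17 share much sequence with each other and with pseudogenes. How reads were split within these families is uncertain, and family sums are given where they bear on a result.

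Promoter sequence from RefSeq (GRCh38.p14) was at hand for 4 of the 10 genes, KRT5, TP63, DSG3 and COL17A1. The 250 bases before the annotated start of KRT5 and COL17A1 are shown because both genes responded to FOXA1 siRNA differently in the 2 lines, as described below for each. KRT5 is read on the minus strand at chr12:52520395-52520644 and COL17A1 on the minus strand at chr10:104085881-104086130. Capitals mark matches to the letters searched on both strands, which were TGANTCA (AP-1), TGTTTAC and TGTTTGC (forkhead), the interferon-stimulated response element, and TATAAA.
KRT5: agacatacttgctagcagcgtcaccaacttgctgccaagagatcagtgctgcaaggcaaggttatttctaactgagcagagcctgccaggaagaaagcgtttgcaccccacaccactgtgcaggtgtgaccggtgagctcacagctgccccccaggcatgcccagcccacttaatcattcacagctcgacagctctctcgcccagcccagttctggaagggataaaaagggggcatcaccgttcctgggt
COL17A1: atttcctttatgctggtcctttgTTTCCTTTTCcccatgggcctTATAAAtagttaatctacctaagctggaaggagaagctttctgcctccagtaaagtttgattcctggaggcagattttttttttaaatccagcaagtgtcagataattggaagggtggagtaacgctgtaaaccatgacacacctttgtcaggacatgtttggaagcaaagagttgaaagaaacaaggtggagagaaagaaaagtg

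The COL17A1 window held the interferon element on the opposite strand and, nearer the start, TATAAA, with no overlap between the matches. The KRT5 window held none of the letters searched, and neither did the windows of TP63 and DSG3. Among 35116 RefSeq promoter windows of the same length, 3.02% held the interferon element, 10.7% TATAAA, 6.57% the AP-1 letters, 2.98% TGTTTAC and 3.23% TGTTTGC. A match describes the sequence and is not a measured binding site.

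The first comparison asked how far the Ba/Sq line and the LumP line differed in these genes before any knock-down. Under siControl 8 of 10 members differed between SCaBER and RT112, 7 higher and 1 lower in SCaBER, where 33.6% of all 14823 genes were called (edgeR's quasi-likelihood test, Benjamini-Hochberg adjusted p under 0.05). KRT6B and DSG3 are among the 8, but they passed the filter on low counts through SCaBER, where they are high, so their calls carry no weight, and 6 calls concern genes with counts in all siControl libraries of both lines. COL17A1, the transmembrane collagen of hemidesmosomes, stood at 4.37 and 7.18 CPM in RT112 and at 1077 and 1137 in SCaBER, a log2 difference of 7.55 (SE 0.20, adjusted p = 3.81e-24). KRT14, the type I partner of KRT5, was at 1.97 and 1.84 CPM in RT112 and at 302 and 270 in SCaBER, a log2 difference of 7.22 (SE 0.32, adjusted p = 1.27e-18). In both genes the lines were far apart, with 20 and 39 COL17A1 counts and 9 and 10 KRT14 counts in the RT112 libraries.

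KRT6A was at 11.6 and 0.920 CPM in RT112 and at 992 and 956.5 in SCaBER, a log2 difference of 7.36 (SE 0.63, adjusted p = 2.16e-11), which was 10.01 without RT112 siControl replicate 1 and 6.39 without replicate 2. KRT6B had no count in 11 RT112 libraries and 1 count in the remaining one, and was at 42.3 and 48.6 CPM in SCaBER under siControl, at least 75.3-fold higher against the 3-count limit per library. DSG3, the desmosomal cadherin of basal keratinocytes, had 0 counts in 11 RT112 libraries and 5 in siControl replicate 2. In SCaBER it was at 19.3 and 24.8 CPM under siControl, and under siFOXA1, where RT112 had no DSG3 count, it was at least 43.1-fold higher in SCaBER. These 2 genes are thus measured in 1 line only, and RT112 offers no response of either to describe.

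KRT5 and CDH3, the gene of P-cadherin of basal epithelial adherens junctions, were present in both lines. KRT5 was at 216 and 175 CPM in RT112 and at 812 and 820 in SCaBER, a log2 difference of 2.06 (SE 0.17, adjusted p = 6.01e-12). CDH3 was at 62.9 and 68.1 CPM in RT112 and at 446 and 420 in SCaBER, a log2 difference of 2.72 (SE 0.17, adjusted p = 1.03e-14). For both genes the 12 SCaBER libraries all lay above the 12 RT112 libraries, but how many of all genes parted so was not counted.

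The other 3 genes did not separate the lines in that way. KRT17 was at 629 and 773 CPM in RT112 and at 897 and 793 in SCaBER, and TP63 at 15.5 and 34.98 against 18.9 and 18.5. Neither passed the test, with log2 differences of 0.27 (SE 0.14, adjusted p = 0.128) and −0.44 (SE 0.44, adjusted p = 0.483), so a luminal and a basal line carried TP63 counts in the same range. KRT16 was higher in RT112, at 49.6 and 59.3 CPM against 28.8 and 18.1, and lower in SCaBER by 1.21 on the log2 scale (SE 0.29, adjusted p = 0.00147), a call lost without SCaBER siControl replicate 2 (−0.92, adjusted p = 0.0629).

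**Figure D1:**
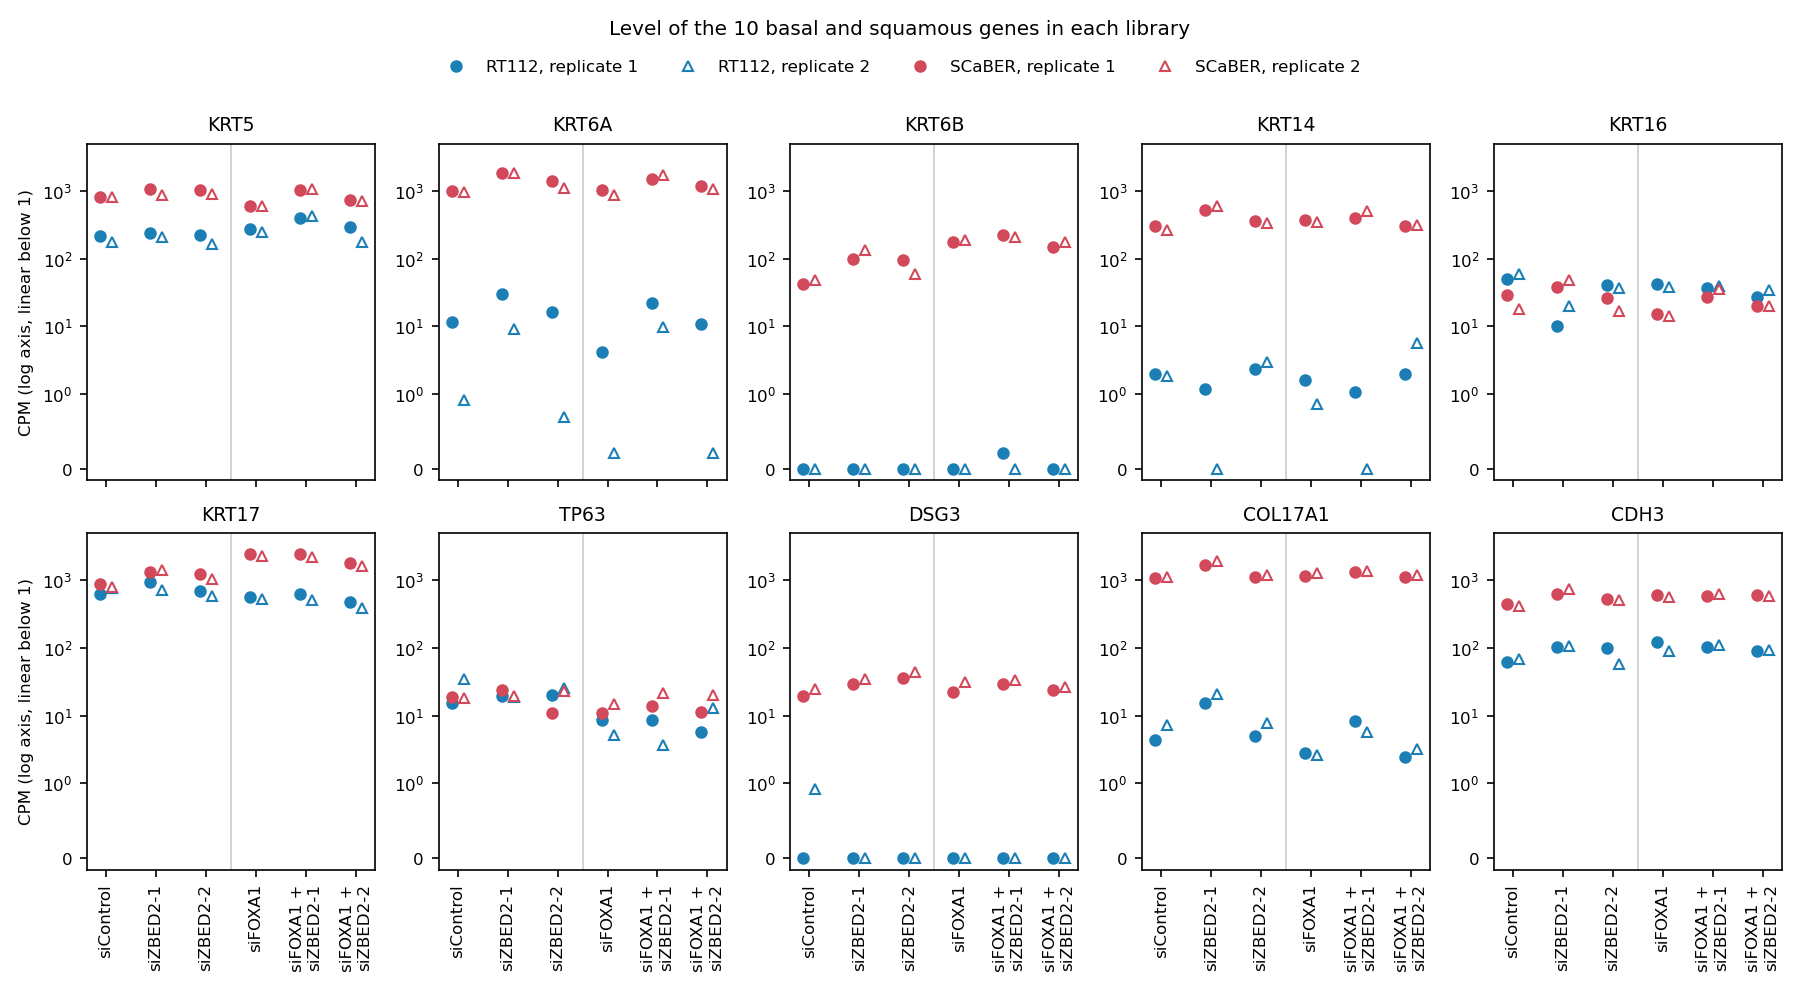
Level of each of the 10 genes in the 24 libraries, in CPM on an axis that is logarithmic above 1 and linear below it, by treatment, with RT112 in blue, SCaBER in red, replicate 1 as filled circles and replicate 2 as open triangles. KRT6B and DSG3 sit at or near 0 in RT112, KRT16 and TP63 lie in the same range in both lines, and in SCaBER the libraries with FOXA1 siRNA, right of the grey line, hold the highest KRT17 and KRT6B.

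FOXA1 siRNA in SCaBER, a line with few FOXA1 counts, was compared with siControl. Of 10 members 4 were called, 3 higher and 1 lower, against 17.8% of all genes. KRT17, a type I keratin of stressed and squamous epithelium, went from 897 and 793 CPM to 2473 and 2303 and rose by 1.48 on the log2 scale (SE 0.10, adjusted p = 1.19e-12). KRT6B, a type II keratin of the same settings, went from 42.3 and 48.6 CPM to 176 and 186.5, a rise of 1.98 on the log2 scale (SE 0.19, adjusted p = 1.03e-09). Both genes were higher in all libraries with FOXA1 siRNA than in any without, but how many of all genes parted so was not counted. The ranges were 1635 to 2473 against 793 to 1404 CPM for KRT17 and 149 to 226 against 42.3 to 133 CPM for KRT6B.

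CDH3 went from 446 and 420 CPM to 607 and 573 and rose by 0.43 on the log2 scale (SE 0.11, adjusted p = 0.00507). Without SCaBER siControl replicate 2 its adjusted p was 0.0623. KRT5 moved the other way, from 812 and 820 CPM to 596 and 607, and fell by 0.46 on the log2 scale (SE 0.11, adjusted p = 0.00193). KRT14, its partner in the filament, was at 302 and 270 CPM and then at 371 and 354, which is 0.33 on the log2 scale (SE 0.13, adjusted p = 0.0723), which passed with the replicate number as a block (adjusted p = 0.0362), as it did by DESeq2 (adjusted p = 0.0471). The KRT5 and KRT14 libraries under siFOXA1 did not overlap those under siControl, but how many of all genes parted in this way was not counted.

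The other 5 members did not pass this test in SCaBER. KRT6A, in the same keratin cluster as KRT6B and nearly identical to it, stayed at 1023 and 878 CPM under siFOXA1 against 992 and 956.5, with a log2 fold change of −0.05 and an interval of 2 SE from −0.27 to 0.165. COL17A1 had 0.12 (SE 0.10), DSG3 0.28 (SE 0.27), TP63 −0.57 (SE 0.37) and KRT16 −0.70 (SE 0.30, adjusted p = 0.114). The median log2 fold change of the 10 members was 0.20, beside −0.016 over all genes tested. For FOXA1 siRNA averaged over 3 backgrounds, described below, it was −0.12 in SCaBER, beside −0.0069. Over the 8 members tested in RT112 it was −0.53 for siFOXA1 and −0.295 in the average, beside −0.015 and −0.010.

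The KRT6 family was also read as shares of its own counts. KRT6B made 4.06% and 4.73% of KRT6A, KRT6B and KRT6C counts in the SCaBER siControl libraries, and 14.6% and 17.2% under siFOXA1. The double knock-downs held 10.8% to 13.8%, and siZBED2-1 and siZBED2-2 without FOXA1 siRNA 4.93% to 6.56%. The summed family count, mostly KRT6A, changed by 0.13 on the log2 scale under siFOXA1 (SE 0.10, adjusted p = 0.461). The sum of KRT14, KRT16 and KRT17, mostly KRT17, rose by 1.24 (SE 0.10, adjusted p = 1.15e-11).

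**Figure D2:**
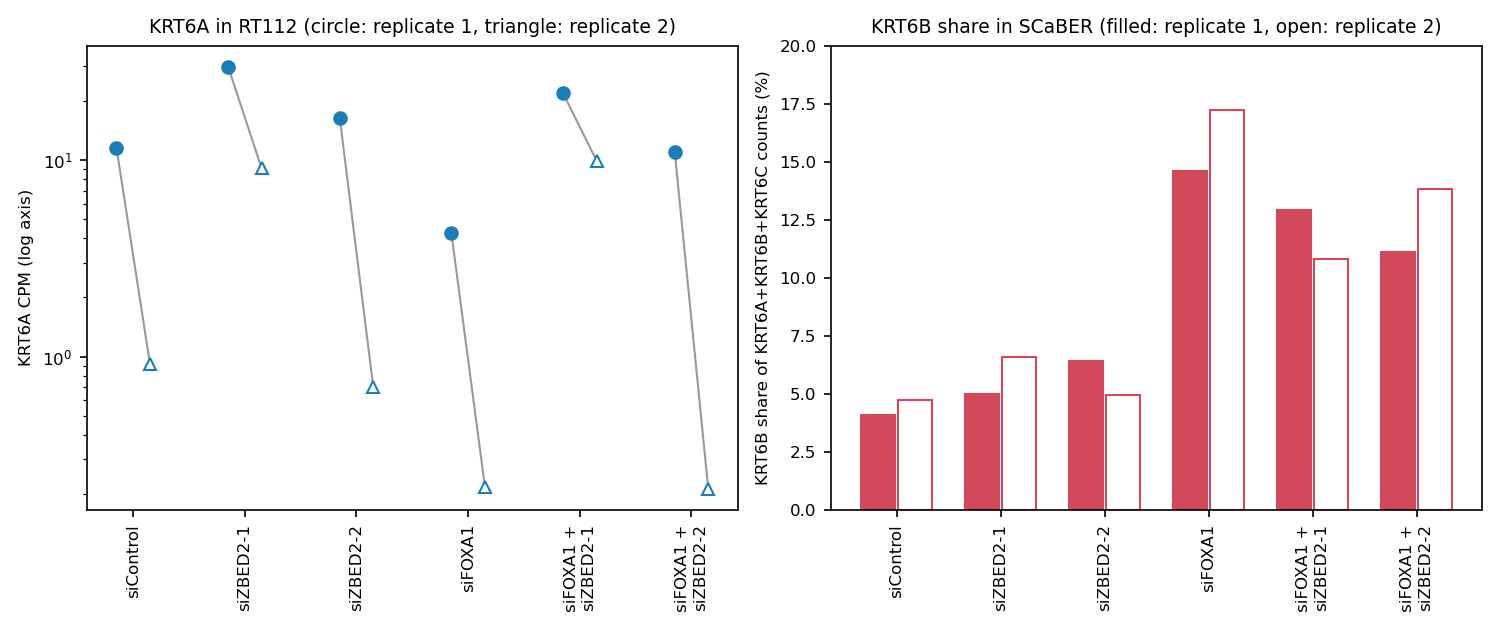
Left, KRT6A in RT112 in CPM on a log axis for each treatment, with a line joining replicate 1 (circle) and replicate 2 (triangle). Replicate 1 is the higher in 6 of 6 groups. Right, the share of KRT6A, KRT6B and KRT6C counts that KRT6B takes in each SCaBER library, in percent, with replicate 1 filled and replicate 2 open. Bars with FOXA1 siRNA stand at 10.8% to 17.2% and those without at 4.06% to 6.56%.

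Averaged over the siControl, siZBED2-1 and siZBED2-2 backgrounds, FOXA1 siRNA changed 3 of 10 members in SCaBER, beside 24.1% of all genes. KRT6B rose by 1.32 (SE 0.11, adjusted p = 9.78e-12) and KRT17 by 0.95 (SE 0.06, adjusted p = 1.29e-14), and KRT5 fell by 0.25 (SE 0.06, adjusted p = 0.00231), all on the log2 scale. All 3 calls held with any 1 library left out, but KRT5 did not fall on every background. Its mean went from 816 to 601 CPM on siControl and from 972 to 731.5 on siZBED2-2. On siZBED2-1 it went from 973 to 1052 CPM. Without SCaBER siZBED2-2 replicate 2, 5 members were called. CDH3, called under siFOXA1 alone, had 0.14 (SE 0.06, adjusted p = 0.105) in the average, which shares the siControl and siFOXA1 libraries with the single comparison.

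In RT112, 8 of the 10 members had enough counts to be tested, KRT6B and DSG3 being left out. Against siControl, siFOXA1 changed 2 of the 8, 1 in each direction, beside 23.3% of all genes. TP63 went from 15.5 and 34.98 CPM to 8.49 and 5.22 and fell by 1.89 on the log2 scale (SE 0.48, adjusted p = 0.0051). CDH3 went from 62.9 and 68.1 CPM to 121 and 90.5 and rose by 0.68 (SE 0.21, adjusted p = 0.0199). In both genes the siFOXA1 libraries lay on one side of both siControl libraries, but how many of all genes did so was not counted. Without RT112 siControl replicate 2, which held the highest TP63 level of that line, TP63 was at −1.20 (adjusted p = 0.174) and no member was called. The TP63 call was also lost without siFOXA1 replicate 2, and the CDH3 call without siControl replicate 1 or siFOXA1 replicate 1.

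With the replicate number as a block 4 members were called in this comparison, the others being KRT5, at 0.40 without and 0.41 with the block (adjusted p = 0.134 and 0.042), and KRT17, at −0.38 and −0.39 (adjusted p = 0.0676 and 0.0208). KRT5 stood at 272 and 248 CPM under siFOXA1 against 216 and 175, and KRT17 at 564 and 523 against 629 and 773. Neither gene's libraries overlapped between these groups, but how many of all genes parted in this way was not counted. ZBED2 itself was lower under siFOXA1 in RT112, at 5.46 and 1.52 CPM (log2 fold change −2.48, adjusted p = 0.0325), so these RT112 libraries were low in both targeted genes.

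Over the 3 backgrounds FOXA1 siRNA changed 5 of 8 tested members in RT112, 2 up and 3 down, beside 33.8% of all genes. TP63 was at 15.5 to 34.98 CPM in the 6 libraries without and at 3.65 to 12.8 in the 6 with FOXA1 siRNA, and fell by 1.62 on the log2 scale (SE 0.28, adjusted p = 4.66e-05). The 2 sets of libraries did not overlap, but how many of all genes parted in this way was not counted. COL17A1 fell by 1.23 (SE 0.34, adjusted p = 0.00661) at low levels, from 4.37 to 21.1 CPM without to 2.43 to 8.29 with the siRNA, and KRT17 fell by 0.50 (SE 0.09, adjusted p = 5.67e-05). KRT5 rose by 0.51 (SE 0.11, adjusted p = 0.000584), and CDH3 rose by 0.31 (SE 0.12, adjusted p = 0.0494).

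The CDH3 call was lost with DESeq2 (adjusted p = 0.0655) and in 9 of the 12 fits with 1 library left out, while the other 4 calls held in each of them. KRT6A, KRT14 and KRT16 did not pass, with log2 fold changes of −0.78 (SE 0.63), −0.09 (SE 0.85) and 0.19 (SE 0.16). The share of mitochondrial transcripts parted the same 6 RT112 libraries from the other 6, as did the summed luminal markers, at 5170 to 6870 CPM with FOXA1 siRNA and 6920 to 7920 without, and the part of either in these member values was not tested.

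**Figure D3:**
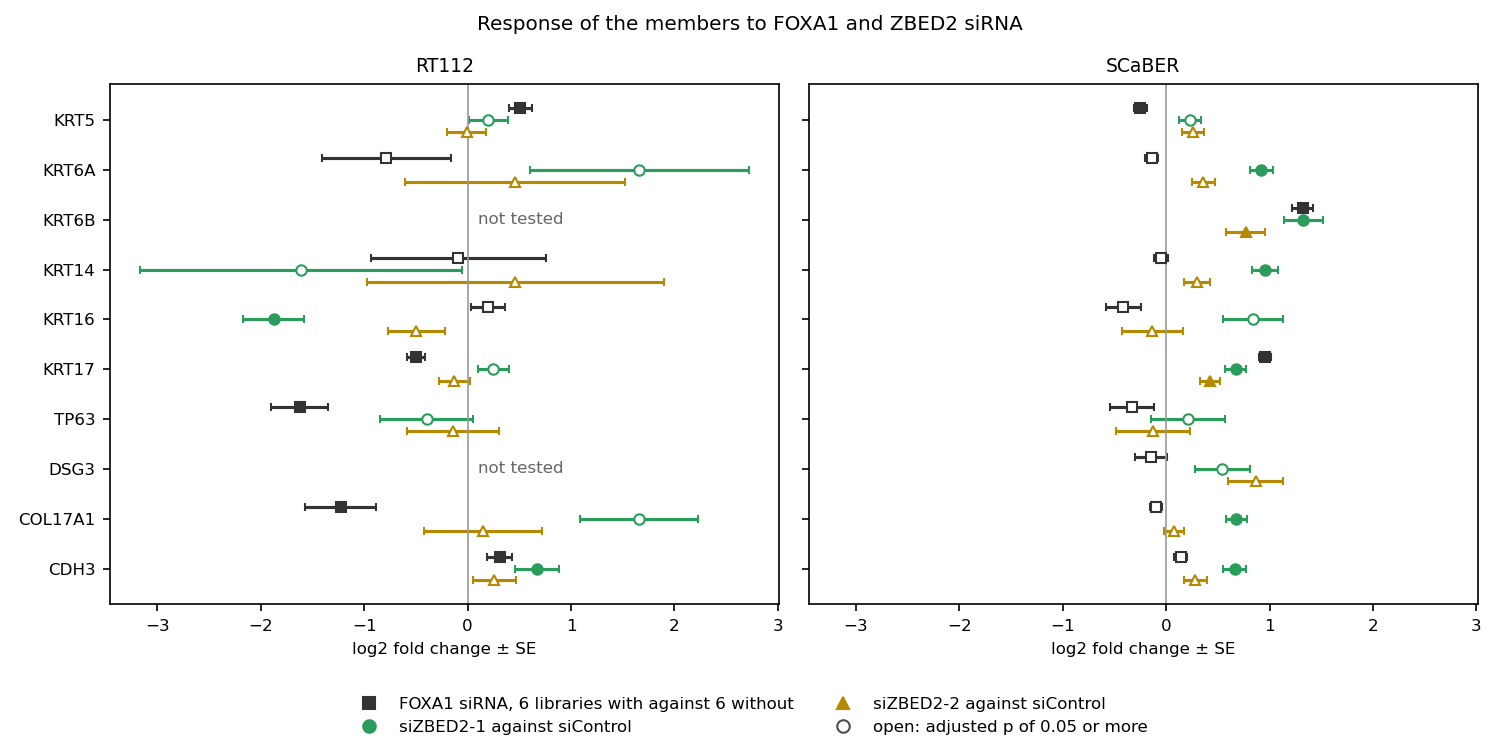
Log2 fold change ± SE of each member for FOXA1 siRNA averaged over 3 backgrounds (squares), siZBED2-1 against siControl (circles) and siZBED2-2 against siControl (triangles), in RT112 and SCaBER, filled where the adjusted p was under 0.05. FOXA1 siRNA lies on opposite sides of 0 in the 2 lines for KRT5 and KRT17, and siZBED2-1 lies above 0 for all 10 members in SCaBER.

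Whether the response to FOXA1 siRNA differed between the lines was tested in a fit of all 24 libraries, with the difference taken as SCaBER minus RT112. For siFOXA1 against siControl 3 of 10 members differed, beside 2.58% of all genes, and for the average over 3 backgrounds 4 of 10, beside 8.11%. KRT17 gave 1.87 under siFOXA1 (SE 0.19, adjusted p = 1.81e-07) and 1.45 in the average (SE 0.11, adjusted p = 7.46e-11), as it was higher with the siRNA in SCaBER and lower in RT112. For KRT5 the difference was −0.85 under siFOXA1 (SE 0.23, adjusted p = 0.0351) and −0.76 in the average (SE 0.13, adjusted p = 0.000217), lower with the siRNA in SCaBER and higher in RT112. COL17A1 gave 1.24 under siFOXA1 (SE 0.34, adjusted p = 0.0404) and 1.13 in the average (SE 0.18, adjusted p = 7.6e-05), and TP63 1.29 in the average (SE 0.37, adjusted p = 0.0258). So KRT5 and KRT17, both keratins with at least 163 CPM in every library, moved in opposite directions in each line in both comparisons. An exception within the average was KRT5 on siZBED2-1 in SCaBER, where its mean was higher with FOXA1 siRNA, at 1052 against 973 CPM.

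CDH3 did not differ between the lines in this test, with −0.17 in the average and an SE of 0.13 (adjusted p = 0.535), and KRT16 gave −0.61 (SE 0.24, adjusted p = 0.128). For KRT6B and DSG3 the RT112 counts of 0 leave a difference of responses without a usable error. For siFOXA1 alone the KRT5 call was lost in 6 and the COL17A1 call in 5 of 8 fits with 1 library left out, and the KRT17 call in none. In the average the TP63 call was lost in 5 of 24 such fits, with an adjusted p of at most 0.0829, and the other 3 calls in none.

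siZBED2-1 in SCaBER changed 6 of 10 members against siControl, all of them higher, beside 4.65% of all genes. The 10 had a median log2 fold change of 0.68 beside −0.0021 over all genes. KRT6A went from 992 and 956.5 CPM to 1872 and 1878 and rose by 0.92 on the log2 scale (SE 0.11, adjusted p = 6.41e-07). KRT14 went from 302 and 270 to 531 and 599 CPM and rose by 0.96 (SE 0.13, adjusted p = 3.88e-06). COL17A1 went from 1077 and 1137 to 1677 and 1929 CPM and rose by 0.68 (SE 0.10, adjusted p = 1.99e-05). In these 3 genes both siZBED2-1 libraries lay above all others of the line without FOXA1 siRNA. How many of all genes did so was not counted.

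KRT6B rose by 1.32 (SE 0.19, adjusted p = 1.22e-05), KRT17 by 0.67 (SE 0.10, adjusted p = 3.06e-05) and CDH3 by 0.66 (SE 0.11, adjusted p = 0.000159). The 6 calls held with any of the 4 libraries left out. FOXA1 had 14 and 1 counts in these siZBED2-1 libraries against 20 and 28 under siControl (log2 fold change −1.65, SE 1.19, adjusted p = 0.564), and its part in the member values was not tested. KRT16, at 37.8 and 47.8 CPM against 28.8 and 18.1, had 0.84 (SE 0.29, adjusted p = 0.0989). DSG3 had 0.54 (SE 0.27), KRT5 0.23 (SE 0.11) and TP63 0.21 (SE 0.36), also without a call.

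siZBED2-2, which left more ZBED2 in SCaBER, gave 2 calls of 10, both higher, beside 0.625% of all genes. They were KRT6B, at 96.5 and 58.6 CPM (log2 fold change 0.77, SE 0.19, adjusted p = 0.0459), and KRT17, at 1225 and 1037 CPM (0.42, SE 0.10, adjusted p = 0.0358). KRT6A had 0.36 (SE 0.11) and passed with the replicate block (adjusted p = 0.192 without and 0.0418 with it), which made 3 calls. DSG3, at 36.2 and 43.8 CPM against 19.3 and 24.8, had the largest log2 fold change of the 10, 0.86 (SE 0.26, adjusted p = 0.201). Neither call was robust to single libraries. KRT6B was at 0.38 without siZBED2-2 replicate 1 and was also lost without either siControl library, KRT17 was lost without siZBED2-2 replicate 1 (0.30) or siControl replicate 2, and without siZBED2-2 replicate 2, where ZBED2 was least reduced, 3 members were called.

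The mean of both ZBED2 siRNAs against the same siControl libraries gave 6 of 10 members higher in SCaBER, beside 1.83% of all genes. KRT6A had 0.64 (SE 0.10), KRT6B 1.05 (SE 0.17), KRT14 0.63 (SE 0.11), KRT17 0.55 (SE 0.09), COL17A1 0.38 (SE 0.09) and CDH3 0.47 (SE 0.10) on the log2 scale. The COL17A1 call was lost without either siControl library or without siZBED2-1 replicate 2, and the CDH3 call without siControl replicate 2 (adjusted p at most 0.19). The siRNAs themselves were compared directly, and 5 of 10 members were higher under siZBED2-1 than under siZBED2-2, beside 4.01% of all genes. COL17A1 differed by 0.60 (SE 0.10, adjusted p = 0.000181), KRT14 by 0.66 (SE 0.12, adjusted p = 0.000999), KRT6A by 0.56 (SE 0.11, adjusted p = 0.00149), CDH3 by 0.38 (SE 0.11, adjusted p = 0.0425) and KRT16 by 0.98 (SE 0.29, adjusted p = 0.048). Without siZBED2-2 replicate 2 only 2 of these calls stood, COL17A1 and KRT14. The KRT16 call was also lost with DESeq2 and without either siZBED2-1 library, and the CDH3 call without siZBED2-1 replicate 2 or siZBED2-2 replicate 1. KRT6B gave 0.55 (SE 0.18, adjusted p = 0.0817) and was called in the blocked fit (adjusted p = 0.0379) or when no filter on low counts was set. Of the remaining members KRT17 differed by 0.25 (SE 0.10, adjusted p = 0.187), KRT5 by −0.03 (SE 0.11) and DSG3 by −0.32 (SE 0.26).

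In RT112 siZBED2-1 changed 2 of 8 tested members, beside 8.8% of all genes. KRT16 went from 49.6 and 59.3 CPM to 10.1 and 19.7 and fell by 1.88 on the log2 scale (SE 0.29, adjusted p = 0.000108), and this call held with any of the 4 libraries left out. CDH3 went from 62.9 and 68.1 to 103 and 106 CPM and rose by 0.67 (SE 0.21, adjusted p = 0.0446), a call lost without any one of them, with values of 0.62 to 0.71. COL17A1 went from 4.37 and 7.18 to 15.7 and 21.1 CPM, or 1.66 on the log2 scale (SE 0.57, adjusted p = 0.0721). KRT16 thus fell in RT112, while in SCaBER both siZBED2-1 libraries lay above siControl without a call.

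siZBED2-2 changed none of the 8 tested members in RT112 by edgeR, with 0 at an unadjusted p under 0.05 and 0 by DESeq2, beside 0.166% of all genes. KRT16 was at 41.1 and 36.6 CPM there, with −0.49 (SE 0.28), below both siControl libraries. In the mean of both siRNAs KRT16 was the only call of 8, at −1.19 (SE 0.24, adjusted p = 0.00512), beside 2.37% of all genes, and the call was lost without siControl replicate 2 (−1.06, adjusted p = 0.129). Between the siRNAs KRT16 was again the only call, lower under siZBED2-1 by 1.38 (SE 0.29, adjusted p = 0.00337), beside 7.77% of all genes, and it was lost without siZBED2-1 replicate 1 (−0.98, adjusted p = 0.105).

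The difference between the lines in the response to the mean of both ZBED2 siRNAs passed for none of the 10 members by edgeR, beside 0.0742% of all genes, with 5 at an unadjusted p under 0.05. DESeq2 called 1, KRT16 (adjusted p = 0.0354). KRT16 had the difference nearest the threshold by edgeR, 1.54 (SE 0.36, adjusted p = 0.102), and it was called without RT112 siZBED2-1 replicate 2.

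KRT6A in RT112 needed the replicate number to be read. It was higher in replicate 1 than in replicate 2 in 6 of 6 groups, with 53 and 5 counts under siControl, 151 and 41 under siZBED2-1, 85 and 4 under siZBED2-2, 21 and 1 under siFOXA1, 103 and 49 under siFOXA1+siZBED2-1, and 50 and 1 under siFOXA1+siZBED2-2. Within each replicate number the siZBED2-1 library lay above the siControl library and the siFOXA1+siZBED2-1 library above the siFOXA1 library. In the unblocked fit of filtered genes KRT6A was not called in any RT112 comparison, with 1.66 (SE 1.06, adjusted p = 0.412) for siZBED2-1 against siControl, while without the filter on low counts this comparison was called. With the replicate number as a block the same comparison gave 2.21 (adjusted p = 0.023), which made 3 members called. ZBED2 was also higher in replicate 1 in 6 of 6 RT112 groups, and what set the replicates apart was not tested. How many of all genes kept such an order was not counted.

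Double knock-downs were first compared with siControl, whose libraries the comparisons above share. In SCaBER 5 of 10 members were higher, beside 11.5% of all genes, namely KRT6B by 2.04 (SE 0.17, adjusted p = 2.63e-10), KRT17 by 1.24 (SE 0.09, adjusted p = 2.54e-11), CDH3 by 0.47 (SE 0.10, adjusted p = 0.00103), KRT6A by 0.46 (SE 0.10, adjusted p = 0.0011) and KRT14 by 0.39 (SE 0.11, adjusted p = 0.0171). The KRT14 call was lost without siControl replicate 2 or siFOXA1+siZBED2-1 replicate 2. KRT5, lower under siFOXA1 alone, had 0.09 (SE 0.09, adjusted p = 0.608) in the double knock-downs.

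In RT112, 5 of 8 tested members differed from siControl in the double knock-downs, 2 up and 3 down, beside 19.9% of all genes. KRT5 rose by 0.66 (SE 0.17, adjusted p = 0.00516) and CDH3 by 0.59 (SE 0.19, adjusted p = 0.0249). TP63 fell by 1.76 (SE 0.39, adjusted p = 0.00163), KRT17 by 0.50 (SE 0.13, adjusted p = 0.00559) and KRT16 by 0.67 (SE 0.23, adjusted p = 0.0444). All of these calls rest on RT112 siControl replicate 2, since none of the 8 was called without it. CDH3 was also lost without siControl replicate 1, and KRT16 in 5 of 6 such fits and with DESeq2.

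Against siFOXA1, which asks what a ZBED2 siRNA adds on a FOXA1-depleted background, the mean of the double knock-downs changed 2 of 10 members in SCaBER, beside 3.84% of all genes. KRT5 rose by 0.55 on the log2 scale (SE 0.09, adjusted p = 0.000267) and KRT6A by 0.51 (SE 0.10, adjusted p = 0.000915), and both calls held with any library left out. KRT17, at −0.24 (SE 0.09, adjusted p = 0.118), was called lower by DESeq2 (adjusted p = 0.0473) and in the blocked fit (adjusted p = 0.0273). In RT112 none of 8 was called by edgeR or DESeq2, with 0 at an unadjusted p under 0.05 in either, beside 1.96% of all genes. There siFOXA1 alone had taken mean ZBED2 from 19.5 to 3.49 CPM, and the double knock-downs held 1.67 and 1.75. Little ZBED2 was left to remove, which limits each RT112 comparison of ZBED2 siRNA on siFOXA1. With the block KRT6A was called in RT112, at 2.37 (adjusted p = 0.0438).

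The siRNAs were then separated, a step chosen after the values were seen. In SCaBER siFOXA1+siZBED2-1 exceeded siFOXA1 in 3 of 10 members, beside 2.73% of all genes. KRT5 went from 596 and 607 CPM to 1042 and 1063 (log2 fold change 0.81, SE 0.11, adjusted p = 9.33e-06), and KRT6A from 1023 and 878 to 1502 and 1717 (0.76, SE 0.11, adjusted p = 3.77e-05). KRT16 had 1.10 (SE 0.30, adjusted p = 0.039), a call lost without either siFOXA1 library or without siFOXA1+siZBED2-1 replicate 2. KRT5 thus lay above both siControl libraries, at 812 and 820 CPM, with this siRNA added and below them without it.

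siFOXA1+siZBED2-2 differed from siFOXA1 in 1 of 10 members in SCaBER, beside 3.66% of all genes. KRT17 fell by 0.46 (SE 0.10, adjusted p = 0.00528), from 2473 and 2303 to 1807 and 1635 CPM, a call lost without siFOXA1+siZBED2-2 replicate 2. Directly compared, siFOXA1+siZBED2-1 exceeded siFOXA1+siZBED2-2 in 4 of 10 members, beside 1.49% of all genes. These were KRT5 by 0.51 (SE 0.11, adjusted p = 0.00791), KRT6A by 0.49 (SE 0.11, adjusted p = 0.0122), KRT14 by 0.55 (SE 0.13, adjusted p = 0.0175) and KRT17 by 0.42 (SE 0.10, adjusted p = 0.0218). Leaving out replicate 2 of either double knock-down ended all 4 calls, the KRT14 call was also lost without siFOXA1+siZBED2-2 replicate 1, and the KRT17 call without siFOXA1+siZBED2-1 replicate 1.

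In RT112 siFOXA1+siZBED2-1 exceeded siFOXA1 in KRT5 alone of the 8 tested members, beside 2.55% of all genes, with 398 and 433 CPM against 272 and 248 (log2 fold change 0.68, SE 0.19, adjusted p = 0.0464). With the block KRT6A was called as well, at 3.60 (adjusted p = 0.00275). KRT5 was also the only member higher than under siFOXA1+siZBED2-2, at 291 and 176 CPM, by 0.84 (SE 0.19, adjusted p = 0.0155), beside 1.79% of all genes, and there too the block added KRT6A, at 2.46 (adjusted p = 0.0377). The first KRT5 call was lost without replicate 2 of siFOXA1 or of siFOXA1+siZBED2-1 and the second without replicate 2 of either double knock-down. siFOXA1+siZBED2-2 against siFOXA1 changed 0 of 8 by edgeR and by DESeq2, with 1 at an unadjusted p under 0.05 in each, beside 1.25% of all genes.

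Averaged over the siControl and siFOXA1 backgrounds, also chosen after the values were seen, siZBED2-1 raised 8 of 10 members in SCaBER, beside 5.89% of all genes. They were KRT16 (0.97, SE 0.21), KRT6A (0.84, SE 0.08), KRT6B (0.79, SE 0.13), KRT14 (0.65, SE 0.09), KRT5 (0.52, SE 0.08), COL17A1 (0.41, SE 0.07), CDH3 (0.35, SE 0.08) and KRT17 (0.32, SE 0.07), each with an adjusted p of at most 0.00381 and each call kept with any of the 8 libraries left out. DSG3 (0.38, SE 0.19) and TP63 (0.34, SE 0.26) did not pass. On the siFOXA1 background alone only KRT5, KRT6A and KRT16 were called, as given above. KRT17 was at 2462 and 2213 CPM there with siZBED2-1 and at 2473 and 2303 without it, so its average reflects the siControl background.

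In RT112 the same average changed 3 of 8 tested members, beside 9.97% of all genes. KRT5 rose by 0.44 (SE 0.13, adjusted p = 0.0328), COL17A1 rose by 1.51 (SE 0.42, adjusted p = 0.0195), and KRT16 fell by 0.97 (SE 0.20, adjusted p = 0.00198). KRT6A had 2.23 (SE 0.79, adjusted p = 0.0724) and was called with the block, at 2.90 (adjusted p = 7.32e-05). The KRT5 call was lost in 4 and the COL17A1 call in 3 of 8 fits with 1 library left out, and the KRT16 call in none. On siFOXA1, KRT16 was at 37.2 and 39.1 CPM with siZBED2-1 and at 42.4 and 38.1 without it, so its average fall reflects the siControl background.

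The interaction tests whether the change with ZBED2 siRNA differed between the backgrounds, as the change on siFOXA1 minus the change on siControl. In SCaBER it passed for 3 of 10 members, all negative, beside 2.29% of all genes, and the members' median was −0.38 beside 0.012 over all genes. KRT17 gave −0.79 (SE 0.12, adjusted p = 0.000224), KRT6B −0.99 (SE 0.22, adjusted p = 0.00957) and KRT14 −0.56 (SE 0.15, adjusted p = 0.0427). These 3 keratins were higher with ZBED2 siRNA on siControl, where the mean of both siRNAs gave 0.55, 1.05 and 0.63, and gave −0.24, 0.06 and 0.06 on siFOXA1. CDH3 (−0.43, SE 0.14, adjusted p = 0.0912) was called by DESeq2 (adjusted p = 0.00985) and when the replicate block was used (adjusted p = 0.0322).

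KRT6A gave −0.13 (SE 0.13, adjusted p = 0.772) and KRT5 0.31 (SE 0.13, adjusted p = 0.263), so neither passed for the mean of both siRNAs. With siZBED2-1 mean KRT5 went from 816 to 973 CPM on siControl and from 601 to 1052 on siFOXA1. An interaction for that siRNA alone was not tested. The KRT14 interaction was lost with library size alone and in 7 of 12 fits with 1 library left out, and the other 2 in none of these. In RT112 the interaction passed for 0 of 8 members by edgeR and by DESeq2, beside 0.611% of all genes, with 2 at an unadjusted p under 0.05 by edgeR and 1 by DESeq2. KRT16 had 0.96 there (SE 0.34, adjusted p = 0.23). ZBED2 was already low under siFOXA1 in RT112, as given above, which limits this test.

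**Figure D4:**
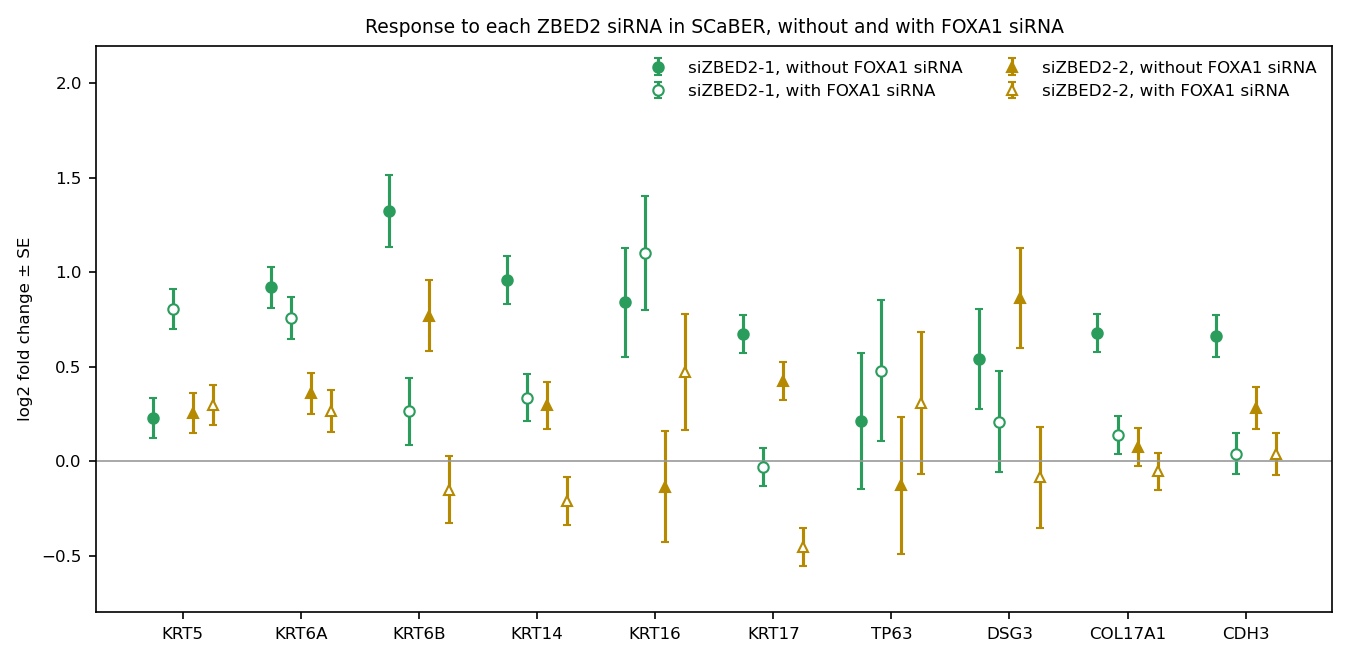
Log2 fold change ± SE of each member in SCaBER for siZBED2-1 (circles) and siZBED2-2 (triangles), against siControl (filled) and against siFOXA1 (open). For KRT6B, KRT14 and KRT17 the filled points lie above the open points of the same siRNA, and for KRT5 under siZBED2-1 the open point is the higher, at 0.81 against 0.23.

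Genes that work with the members were counted by list, and values under the ZBED2 siRNAs are given for genes chosen after these were seen. Among 9 genes of the hemidesmosome and of its ligand laminin-332, siZBED2-1 raised 5 in SCaBER, where 4.65% of all genes were called, and 2 in RT112, where 8.8% were, and lowered none in either. In SCaBER they included LAMB3 (log2 fold change 1.15, SE 0.11), which encodes a subunit of laminin-332, and ITGB4 (0.86, SE 0.15), ITGA6 (0.81, SE 0.12) and ITGA3 (0.58, SE 0.14), the integrin chains that bind it. The list's median was 0.58 beside −0.0021 over all genes, and COL17A1 of the same structure had 0.68. LAMB3 also rose under siZBED2-2 in SCaBER (0.56, SE 0.11).

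FOXA1 siRNA, averaged over 3 backgrounds, for which 24.1% of all genes were called in SCaBER and 33.8% in RT112, raised 4 and lowered 1 of these 9 genes in SCaBER, with LAMB3 at 0.85 (SE 0.06) and ITGA6 at −0.39 (SE 0.07). In RT112 it raised 1 and lowered 2, namely ITGA3 at 0.44 (SE 0.11), ITGA6 at −0.40 (SE 0.09) and ITGB4 at −0.62 (SE 0.11). ITGA6 was lower in both lines, and COL17A1 was called only in RT112.

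Of 9 other desmosome genes FOXA1 siRNA raised 3 and lowered 4 in RT112, beside 33.8% of all genes called, and raised 1 and lowered 1 in SCaBER, a share near the 24.1% of all genes. In RT112 desmoplakin (DSP), which ties keratin filaments to the desmosome, fell by 0.91 (SE 0.11) and the cadherin DSG2 by 0.80 (SE 0.08), while plakoglobin (JUP) rose by 0.44 (SE 0.07). In SCaBER DSC2 rose by 0.56 (SE 0.09) and DSG2 fell by 0.30 (SE 0.08). siZBED2-1 raised 3 of the 9 in each line and lowered none, beside 8.8% of all genes called in RT112 and 4.65% in SCaBER. DSC2 had 1.48 (SE 0.28) in RT112 and 0.81 (SE 0.16) in SCaBER.

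Of 7 adherens junction genes FOXA1 siRNA raised 4 and lowered 2 in RT112, beside 33.8% of all genes, and lowered 1 in SCaBER, a smaller share than the 24.1% of all genes. CDH1, the gene of E-cadherin, rose by 0.61 (SE 0.09) in RT112 beside the 0.31 of CDH3, AFDN rose by 0.69 (SE 0.13), and NECTIN1 fell by 0.75 (SE 0.09) in RT112 and by 0.38 (SE 0.12) in SCaBER. siZBED2-1 raised 1 of the 7 in RT112, CDH1 (0.83, SE 0.16), and none in SCaBER, beside 8.8% and 4.65% of all genes.

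Of the squamous differentiation genes FOXA1 siRNA lowered 6 and raised 1 of 12 tested in RT112, and lowered 6 and raised 1 of 15 tested in SCaBER, with a list median of −0.63 in both lines, beside 33.8% and 24.1% of all genes called. KRT13 fell by 1.18 (SE 0.09) in RT112 and by 1.91 (SE 0.34) in SCaBER. Without the siRNA its mean was 4460 CPM in RT112 and 12.8 in SCaBER, so it was far higher in the LumP line. KRT4, the type II partner of KRT13, fell by 1.37 (SE 0.10) in RT112, where KRT80 rose by 1.33 (SE 0.09). The serpins SERPINB3 and SERPINB4 fell by 1.66 (SE 0.24) and 1.35 (SE 0.33) in SCaBER. siZBED2-1 raised 3 and lowered 1 of the 12 in RT112, beside 8.8% of all genes called. In SCaBER it raised 3 of the 15, beside 4.65%. With this siRNA SERPINB3 rose by 2.48 (SE 0.40) and SERPINB4 by 2.76 (SE 0.54) in SCaBER, and KRT4 by 1.80 (SE 0.18) in RT112.

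Of the basal and squamous regulators FOXA1 siRNA raised 5 and lowered 7 of 19 tested in RT112, and raised 2 and lowered 7 of 21 tested in SCaBER, beside 33.8% and 24.1% of all genes. KLF5, a zinc finger factor of epithelial progenitors, fell by 1.03 (SE 0.08) in RT112 and by 0.99 (SE 0.10) in SCaBER. In neither line did libraries with and without the siRNA overlap, but how many of all genes parted in this way was not counted. The paper counts KLF5 and GRHL2, both lowered in RT112, among Luminal-associated genes, so the list is not basal alone. In SCaBER HMGA2, a chromatin architectural factor, fell by 1.13 (SE 0.07) and the Notch ligand JAG2 by 1.03 (SE 0.11), and in RT112 JUNB fell by 0.56 (SE 0.10) and TFAP2C rose by 0.59 (SE 0.11). siZBED2-1 raised 3 of the 19 and 5 of the 21 and lowered none, beside 8.8% of all genes in RT112 and 4.65% in SCaBER. HMGA2 had 2.23 (SE 0.40) in RT112 and 1.18 (SE 0.12) in SCaBER, and EGFR 1.28 (SE 0.16) and 0.53 (SE 0.13).

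How the members varied together was described by Pearson's r of log2 CPM over the 12 libraries of a line, which share treatments and depth. In SCaBER the highest r was that of KRT6B with KRT17, at 0.952, followed by 0.896 for KRT14 with COL17A1, 0.879 for KRT6A with KRT16 and 0.874 for KRT6A with KRT14. KRT5 went with KRT6A, at 0.762, and had −0.242 with KRT17. Among the 5 members with a mean of at least 10 CPM in RT112, KRT17 and TP63 had 0.6, KRT5 and CDH3 0.623, and KRT5 and TP63 −0.786, so the gene of p63 ran against KRT5 there.

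The genes whose pattern over the 24 libraries was most like a member's, after each line's mean was removed, were listed for the 5 members with at least 10 CPM in both lines among 7587 genes. They were ATP11A (r = 0.762), ATXN2 (0.761) and JUP (0.754) for KRT5, HEATR1 (0.757), ALG2 (0.749) and CCDC86 (0.742) for KRT16, and STAMBP (0.847), SQLE (0.838) and RALA (0.829) for KRT17. For TP63 they were BRI3BP (0.853), PCNP (0.846) and EIF4G2 (0.846), and for CDH3 BCL2L1 (0.859), EFNA1 (0.849) and TMEM147 (0.831). Taken within a line the lists were other genes, such as GNPTAB (0.919) in RT112 and SLC7A5 (0.941) in SCaBER for KRT5, except that BCL2L1 was among the first 3 for CDH3 in RT112 as well (0.880).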

How the data were processed

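RNA of RT112 and SCaBER cells was measured by 3′ RNA-seq (QuantSeq FWD) in 24 libraries. Per the submitters' processing notes, the authors used TrimGalore 0.6.2 for trimming (quality of at least 20, length of at least 10) and STAR 2.6.1a for alignment, and deposited raw counts per gene (GENCODE release 29). The settings in the labels name hg38 and the study's methods hg19, and coordinates here are those of GRCh38.p14. The deposited TPM values were not used, since they divide by gene length, which does not suit 3′ reads.

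Counts were tested with edgeR 4.0.16 (R 4.3.3), by the quasi-likelihood F-test with TMM factors. Genes had to pass filterByExpr (minimum count 10, minimum total 15), p-values were adjusted by Benjamini-Hochberg over all genes tested, and calls had an adjusted p under 0.05. The 12 libraries of a line shared a fit of 13264 genes in RT112 and 13129 in SCaBER, and comparisons of lines used all 24 libraries and 14823 genes. SE is the absolute log2 fold change divided by the square root of F. The script was tested on simulated data.

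Libraries held 4425404 to 6119210 counts, and limits of 3 counts cover counting error only. Replicates of a group differed beyond sampling noise in each of the 12 groups. The main fits did not use the replicate numbers, which the labels call an experiment batch, and a block on them was an alternative. Deviations of same-numbered libraries correlated weakly (mean r of 0.0304 in RT112 and 0.0223 in SCaBER, 0 of 15 pairs over 0.1 in either). Alternatives were DESeq2 1.42.0, RLE factors, library size alone, no filter, the replicate block and leaving out each library. Comparisons of each double knock-down with siFOXA1 and with the other, and siZBED2-1 averaged over backgrounds, were added after the values were seen.

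The 10 genes, the related lists and the marker lists were chosen with earlier results of these data known. Besides the 10 genes, the rule named the 3 genes with the lowest p of each related list under averaged FOXA1 siRNA and the 3 genes with the highest r per gene, among genes with a mean of at least 10 CPM. Values of some genes of these lists are not reported here.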

Additional observations from a re-analysis of the deposited data

Results flagged for a closer look

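The response to FOXA1 siRNA differed between SCaBER and RT112 by the test of the difference itself, as SCaBER minus RT112 on the log2 scale. For siFOXA1 against siControl the difference was −0.85 for KRT5, 1.87 for KRT17 and 1.24 for COL17A1. Averaged over 3 backgrounds it was −0.76 for KRT5, 1.45 for KRT17, 1.29 for TP63 and 1.13 for COL17A1. The change with ZBED2 siRNA differed between the siFOXA1 and the siControl background in SCaBER, by −0.99 for KRT6B, −0.56 for KRT14 and −0.79 for KRT17.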

How the results depend on the processing

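No result reversed under any alternative. Of 88 called member values, 85 kept their call under DESeq2, 81 under library size alone, and 88 under RLE factors, without the filter and with the replicate block. In fits with 1 library left out a called member kept its call 516 times and lost it 98 times, and the cause was not tested. Under library size alone the median of all genes was −0.111 (siFOXA1), −0.105 (averaged) and −0.104 (double knock-down against siControl) in RT112, beside −0.0149, −0.0102 and −0.0199, and the averaged calls split into 1686 higher and 2761 lower, beside 2219 and 2260. Leaving out 1 library, members called ranged from 0 to 2 for siFOXA1 in RT112, 0 to 5 for the double knock-down against siControl in RT112, 3 to 5 for averaged FOXA1 siRNA in SCaBER, 1 to 3 for the line difference under siFOXA1, 0 to 1 for that under ZBED2 siRNA, 0 to 2 for both siRNAs in RT112, 4 to 6 in SCaBER, 0 to 3 for siZBED2-2 in SCaBER, 1 to 2 for siZBED2-1 in RT112, 0 to 3 (RT112) and 2 to 5 (SCaBER) between the siRNAs, and 2 to 3 for the interaction in SCaBER. In the comparisons added after the values were seen they ranged from 0 to 2 and 2 to 3 for siFOXA1+siZBED2-1 against siFOXA1, 0 to 2 and 0 to 3 between the double knock-downs, 0 to 1 for siFOXA1+siZBED2-2 in SCaBER, and 2 to 4 for averaged siZBED2-1 in RT112. With the replicate block, 4 members were called for siFOXA1 in RT112, 1 for the double knock-down, 2 for siFOXA1+siZBED2-1 against siFOXA1 and 2 between the double knock-downs in RT112, and beyond the calls given above it changed no other. Without the filter the double knock-down against siFOXA1 gave 1 and siFOXA1+siZBED2-1 against siFOXA1 gave 2 in RT112, and the line difference under ZBED2 siRNA was 1. It also added KRT6A for siZBED2-1 against siControl and averaged siZBED2-1 in RT112 and for both line differences under FOXA1 siRNA, KRT17 for siFOXA1 in RT112 and between the lines, and KRT6B between the siRNAs in SCaBER. DESeq2 called 5 for the interaction and 2 for siFOXA1+siZBED2-2 against siFOXA1 in SCaBER, and 1 for the line difference under ZBED2 siRNA, and added KRT14 for siFOXA1 and KRT17 for the double knock-down against siFOXA1 in SCaBER. It lost KRT16 between the siRNAs in SCaBER, and in RT112 KRT16 for the double knock-down against siControl and CDH3 for averaged FOXA1 siRNA. Library size alone called 5 for averaged FOXA1 siRNA, 0 for siZBED2-2 and 3 between the siRNAs in SCaBER, and lost KRT14 in the interaction. In RT112 it lost CDH3 for averaged FOXA1 siRNA and for the double knock-down against siControl. With 2 libraries per group a lone library was assumed to vary like the other groups, and low counts limit KRT6A, KRT14 and COL17A1 in RT112.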

Other observations

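Replicate numbers also ordered DSG3 in SCaBER, where replicate 2 was above replicate 1 in 6 of 6 groups, from 19.3 and 24.8 CPM under siControl to 36.2 and 43.8 under siZBED2-2, and likewise COL17A1, from 1077 and 1137 under siControl to 1677 and 1929 under siZBED2-1. KRT6A and ZBED2 in RT112 ran the other way, with replicate 1 the higher in 6 of 6 groups. How many of all genes kept such an order was not counted. KRT14 in RT112 had between 0 and 27 counts per library, and 0 in 2 libraries.

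The sum of KRT14, KRT16 and KRT17 fell by 0.47 on the log2 scale with FOXA1 siRNA averaged over 3 backgrounds in RT112 (SE 0.08, adjusted p = 7.77e-05) and rose by 0.74 in SCaBER (adjusted p = 2.05e-12). The sum of KRT6A, KRT6B and KRT6C rose by 0.93 under siZBED2-1 in SCaBER (SE 0.11, adjusted p = 2.19e-07), beside 0.92 for KRT6A alone. Within SCaBER the genes whose pattern was most like that of KRT6A over 12 libraries were PRDX6 (r = 0.964), GSTP1 (0.960) and ZFP64 (0.956), and for KRT14 they were IL1A (0.946), GABRA3 (0.930) and CLDN1 (0.913).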
